A study of Mus musculus with 4 samples.

Results

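The genes described here encode the nuclear subunits of the mitochondrial respiratory chain and of ATP synthase, with the complex I assembly factors that carry the same name stem. They were taken by symbol from the RefSeq annotation of the mouse genome (GRCm38.p6): protein-coding nuclear genes starting with Nduf, Uqcr, Atp5 or Cox4 to Cox8, plus the succinate dehydrogenase genes Sdha to Sdhd and Cycs. The rule found 97 of 21887 protein-coding genes on the placed chromosomes, and no measured value entered it. The study compared Pcbp1 chromatin immunoprecipitation sequencing (ChIP-seq) between naive and primed states of mouse E14 Tg2a embryonic stem cells. Both states began in serum-free N2B27 medium with LIF, the MEK inhibitor PD0325901 (1 uM) and the GSK3 inhibitor CHIR99021 (3 uM), in which the cells were kept for 3 passages. For the Naive state poly-L-ornithine-treated plastic was used. The primed epiblast-like cells (EpiLC) were moved to N2B27 with bFGF (12 ng/ml), Activin A (20 ng/ml) and serum replacement on fibronectin for 48 hours. Chromatin sheared to about 500 bp was precipitated with a Pcbp1 antibody. Each state had 1 Pcbp1 library and 1 input library, from 1 cell line, and the inputs were not analysed here, so no value has a replicate error and no test between the states was possible.

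Complexes I to IV pass electrons from NADH and succinate to oxygen. Complexes I, III and IV pump protons across the inner mitochondrial membrane, and ATP synthase (complex V) uses the resulting gradient to make ATP. Most of the subunits are encoded in the nucleus and a small core is encoded by mitochondrial DNA. Naive embryonic stem cells are known to combine respiration with glycolysis, and primed cells rely more on glycolysis. Pcbp1 is a KH-domain protein that binds C-rich single-stranded RNA and DNA and also acts as an iron chaperone.

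The Naive list held 12132 peaks and the EpiLC list 3494. A peak was given to a gene when no more than 1 kb separated its summit from one of the gene's annotated ends, and where a gene had several such peaks the one with the highest fold enrichment was used. The fold enrichment is the authors' value, the ratio of the summit to the background used by their peak caller. Intervals in brackets after a fold are 95% Poisson intervals of the pileup, the number of fragments stacked at the summit. They cover counting error only and hold the background fixed. The lowest background in the Naive list was 4.004 fragments and in the EpiLC list 7.43, and the median fold over all peaks was 4.43 and 3.41. Folds in the lists are therefore over unlike backgrounds, and a gene without a listed peak is not shown to lack Pcbp1.

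Peaks lay at the ends of a majority of the respiratory genes in Naive and of a minority in EpiLC. In Naive, 59 of 97 had such a gene-end peak (60.8%, 95% exact binomial interval 50.4 to 70.6), beside 19.3% of all protein-coding genes. In EpiLC, 14 of 97 had one (14.4%, 8.12 to 23.0), beside 5.61%. The same 14 of 97 had gene-end peaks in both lists, beside 4.09% of all genes. All 14 genes with an EpiLC peak thus had a Naive one, as did 72.9% of all genes with an EpiLC gene-end peak. That left 45 respiratory genes with a peak in Naive alone (15.2% of all genes), none in EpiLC alone (1.52% of all genes) and 38 with neither. The binomial intervals treat genes as independent and leave out any spread between cultures.

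The complexes ranged widely in these shares, and the intervals of the small ones were broad. ATP synthase had the highest Naive share among the complexes, with 13 of 17 genes (76.5%, 50.1 to 93.2), followed by complex III with 6 of 8 (75%, 34.9 to 96.8). Complex I had 30 of 47 genes with its assembly factors, made up of 4 of 7 core subunits, 21 of 32 accessory subunits and 5 of 8 assembly factors. Complex II had 2 of 4, and complex IV had the lowest share, 7 of 20 (35%, 15.4 to 59.2). In EpiLC the counts were 6 of 17 for ATP synthase (35.3%, 14.2 to 61.7), 2 of 7, 4 of 32 and 0 of 8 for the complex I core, accessory and assembly genes, 1 of 4 for complex II, 0 of 8 for complex III and 1 of 20 for complex IV (5%, 0.127 to 24.9). Intervals of all these complexes overlapped in both lists. The Naive intervals of the complex I core (18.4 to 90.1), complex II (6.76 to 93.2) and complex IV included the 19.3% of all genes. In EpiLC, the intervals of all complexes but ATP synthase included the 5.61% of all genes. A binomial interval for 0 of 8 genes reaches up to 36.9%, so complex III in EpiLC could not be told apart from the others. With the Naive list shortened to the 3494 peaks with the highest −log10 q-values, 22 of the 97 genes kept a Naive gene-end peak, beside 5.44% of all genes.

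**Figure D1:**
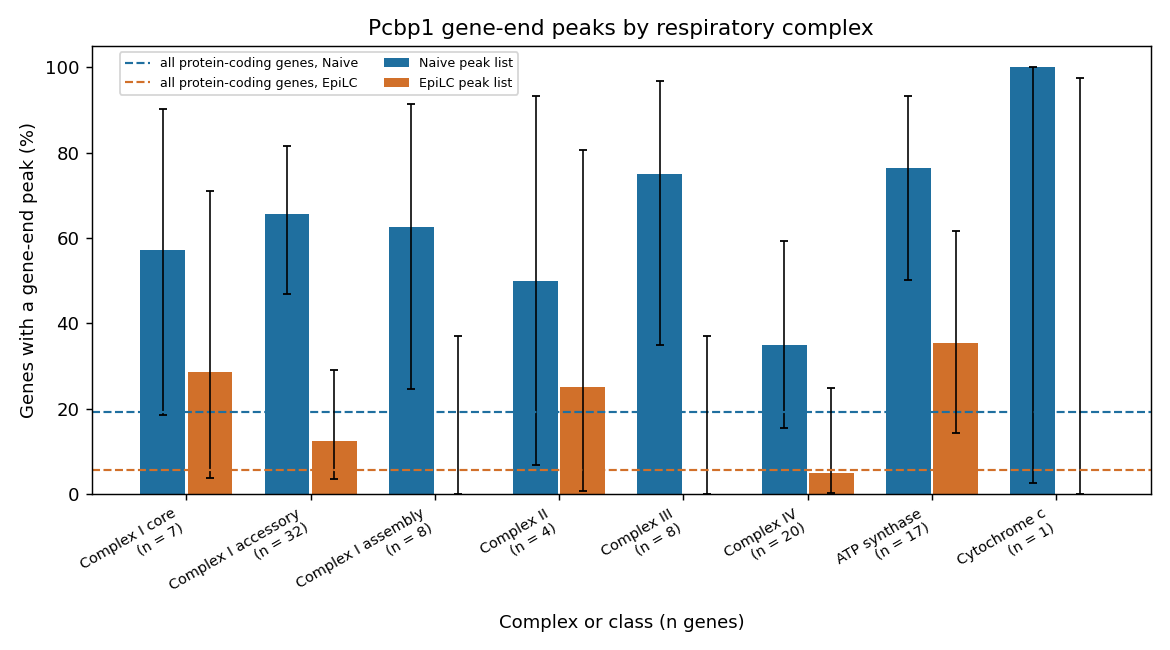
Share of genes with a gene-end peak (%, y axis) in each complex or class (x axis, with the number of genes), for the Naive and EpiLC peak lists. Error bars are 95% exact binomial intervals over genes and dashed lines give the shares of all protein-coding genes, 19.3% and 5.61%. Each Naive bar stands above the Naive line, from 35% for complex IV to 76.5% for ATP synthase, leaving aside the 1 gene of cytochrome c. The EpiLC bars of complex III, the assembly factors and cytochrome c are at 0. The Naive intervals of the complex I core, complex II, complex IV and cytochrome c include the Naive line. In EpiLC the bar of complex IV, 5%, stands below the EpiLC line.

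Peaks at these genes lay over promoters in the main, so the promoter sequences of the 6 genes with the strongest peaks in both lists are shown, ranked by the lower of the 2 folds among genes with a promoter entry. Each is the stretch of 250 bases before the annotated start, 5′ to 3′ on the gene's strand, from RefSeq GRCm38.p6. Capitals mark matches to the 6 motifs named further on. Ndufb1 lies at chr12:101975739-101975988 (minus strand), Sdhb at chr4:140961021-140961270 (plus), Atp5l at chr9:44920743-44920992 (minus), Atp5b at chr10:128083057-128083306 (plus), Atp5c1 at chr2:10080511-10080760 (minus) and Ndufb3 at chr1:58586147-58586396 (plus).
Ndufb1: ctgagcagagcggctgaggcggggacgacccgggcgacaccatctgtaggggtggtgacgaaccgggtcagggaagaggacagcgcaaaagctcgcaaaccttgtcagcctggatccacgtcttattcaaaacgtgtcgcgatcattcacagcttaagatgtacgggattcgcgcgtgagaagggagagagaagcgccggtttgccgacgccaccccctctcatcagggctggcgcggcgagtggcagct
Sdhb: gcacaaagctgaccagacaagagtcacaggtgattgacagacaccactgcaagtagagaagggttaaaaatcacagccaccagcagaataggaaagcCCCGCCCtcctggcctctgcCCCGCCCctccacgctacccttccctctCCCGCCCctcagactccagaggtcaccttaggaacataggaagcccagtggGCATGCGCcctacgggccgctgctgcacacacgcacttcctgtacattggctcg
Atp5l: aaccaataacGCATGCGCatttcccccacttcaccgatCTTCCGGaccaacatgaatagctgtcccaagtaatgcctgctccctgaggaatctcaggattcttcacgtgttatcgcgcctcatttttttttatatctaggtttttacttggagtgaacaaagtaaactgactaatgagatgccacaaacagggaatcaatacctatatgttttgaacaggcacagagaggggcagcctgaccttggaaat
Atp5b: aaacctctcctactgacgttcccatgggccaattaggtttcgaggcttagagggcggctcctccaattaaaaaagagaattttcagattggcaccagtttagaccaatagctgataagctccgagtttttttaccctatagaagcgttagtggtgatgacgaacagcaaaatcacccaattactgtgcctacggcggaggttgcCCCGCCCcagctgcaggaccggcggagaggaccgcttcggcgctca
Atp5c1: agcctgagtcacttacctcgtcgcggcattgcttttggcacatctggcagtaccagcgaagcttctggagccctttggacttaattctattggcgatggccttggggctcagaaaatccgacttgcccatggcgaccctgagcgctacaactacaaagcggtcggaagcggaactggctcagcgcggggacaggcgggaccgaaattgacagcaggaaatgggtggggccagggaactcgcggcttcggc
Ndufb3: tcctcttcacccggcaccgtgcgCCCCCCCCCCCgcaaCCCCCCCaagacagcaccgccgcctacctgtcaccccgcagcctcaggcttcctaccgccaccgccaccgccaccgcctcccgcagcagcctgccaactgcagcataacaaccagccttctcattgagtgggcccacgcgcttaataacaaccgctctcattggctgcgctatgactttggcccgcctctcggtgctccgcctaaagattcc

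These stretches had no sequence pattern in common among the motifs searched. Ndufb3 held 117 C in 250 bases, with runs of 11 and 7 C on the coding strand, while the longest C run was 5 in Ndufb1 and Atp5l, 4 in Sdhb and Atp5b and 3 in Atp5c1. Base composition varied as well, from 44.0% G and C in Atp5l to 65.6% in Ndufb3. The Sdhb stretch held 3 Sp matches and 1 NRF1 match, Atp5l an NRF1 and an ETS match, and Atp5b 1 Sp match. Ndufb1 and Atp5c1 held none of the 6. The summits lay 98 (Naive) and 61 (EpiLC) bp before the start of Ndufb1 and 402 and 448 bp before that of Atp5l, beyond the printed stretch. They lay 139 and 120 bp inside Ndufb3 and 202 and 310 bp inside Atp5c1. At Sdhb and Atp5b the lists differed, with Naive summits 264 and 241 bp inside the gene and EpiLC summits 330 and 139 bp before it.

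ATP synthase held the strongest peak of the whole set. Atp5o (gene at chromosome 16, 91925223 to 91931630) encodes OSCP, the subunit that ties the catalytic F1 head to the peripheral stalk. Its fold was 11.2 (8.48 to 14.5) in Naive, against 2.99 (2.27 to 3.87) in EpiLC, with both summits at the same base, 38 bp before the start. The summit pileups behind these folds were nearly equal, 55 and 56 fragments. The backgrounds were unlike, 4.004 fragments in Naive, the lowest of that list, and 18.0 in EpiLC. In Naive this peak stood at percentile 99.1 of all genes with a gene-end peak and in EpiLC at percentile 32. Atp5l, for subunit g of the membrane sector, had 8.77 (6.40 to 11.7) in Naive, against 3.51 (2.60 to 4.64) in EpiLC. Atp5b, for the catalytic beta subunit, had 7.59 (5.43 to 10.4) and 3.32 (2.54 to 4.26). For these 3 genes the Naive and EpiLC intervals, which hold the background fixed, did not overlap.

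The remaining F1 genes but Atp5d had weaker Naive peaks and a peak in EpiLC as well. Atp5a1, for the alpha subunit, had 4.53 (3.02 to 6.56) in Naive, against 3.73 (2.69 to 5.05) in EpiLC, at a peak that it shared with Haus1. Atp5c1, for the central gamma subunit, had 4.29 (2.73 to 6.46) and 3.22 (2.31 to 4.37), at peaks shared with Kin. Atp5e, for the epsilon subunit, had 4.27 (2.91 to 6.07) and 2.78 (2.04 to 3.71), with the Naive peak shared with Prelid3b. Intervals of the 2 states overlapped at each of these genes. Atp5d, for the delta subunit, was the F1 gene with a gene-end peak in neither list, and its nearest Naive summit lay 3364 bp from the gene. Counted together, 5 of the 6 genes of F1 and OSCP had a peak in Naive and the same 5 had one in EpiLC. Among the other 11 ATP synthase genes, which encode the membrane sector and the rest of the stalk, 8 had a peak in Naive and 1, Atp5l, in EpiLC. This division of the enzyme was made after the values were seen, and the difference was not tested. The membrane-sector genes in Naive alone ran from Atp5md at 3.51 to Atp5g1, a c-ring gene, at 6.33 (4.42 to 8.82). Atp5pb, for the stalk subunit b, had 5.79, Atp5j2 5.07, Atp5g2 4.70, Atp5k 3.98 and Atp5h 3.78. The peaks of Atp5pb, Atp5h and Atp5md were shared with Wdr77, Kctd2 and Pdcd11, respectively. Atp5g3, Atp5j and Atp5mpl had no gene-end peak.

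The core subunits of complex I, which carry the flavin and iron-sulphur clusters, were split. Ndufs3 had the highest Naive fold among the gene-end peaks of the complex, 7.99 (5.74 to 10.9), and 2.63 (1.92 to 3.50) in EpiLC. Ndufs3 shared its peaks in both lists with Kbtbd4. Ndufs1, the largest subunit (gene at chromosome 1, 63143592 to 63176822), had 6.33 (4.36 to 8.90) in Naive, against 4.58 (3.48 to 5.93) in EpiLC, the highest EpiLC fold among the respiratory genes. The Naive summit of Ndufs1 lay 433 bp from the EpiLC summit, and a second Naive peak of 4.55 (2.92 to 6.78) overlapped the EpiLC peak too. All of these peaks also lay at the end of Eef1b2, a translation elongation factor gene. Ndufv2 had 4.41 (3.02 to 6.24) and Ndufv1, which holds the NADH site, 3.53 (2.27 to 5.26), both in Naive alone. Ndufs7 and Ndufs8 had no gene-end peak.

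Accessory subunits surround the complex I core and are needed for its assembly and stability. Their 21 Naive folds ran from 3.36 to 7.87 with a median of 4.63, close to the median of 4.58 over all genes with a Naive gene-end peak. Ndufb1 had the highest, 7.87 (5.87 to 10.4), and 4.20 (3.27 to 5.32) in EpiLC, at a peak shared with the polyadenylation factor gene Cpsf2. The next were Ndufb2 at 6.39 (4.52 to 8.78) and Ndufb9, at a peak shared with Tatdn1, at 6.19 (4.24 to 8.76), both in Naive alone. A peak in EpiLC was found at 3 further accessory genes, all with lower Naive folds than these. Ndufb3 had 5.59 (3.88 to 7.82) in Naive, against 3.17 (2.31 to 4.24) in EpiLC, at peaks shared with Fam126b. Ndufa7, at a peak shared with the ribosomal protein gene Rps28, had 4.66 (3.15 to 6.67) and 3.15 (2.35 to 4.13). Ndufa9 had the lowest Naive fold of the accessory genes, 3.36 (2.24 to 4.87), and still had a peak in EpiLC at 2.66 (1.93 to 3.57). Accessory genes without a gene-end peak in either list were Ndufa1, Ndufa3, Ndufa8, Ndufa10, Ndufb4b, Ndufb4c, Ndufb8, Ndufb10, Ndufc1, Ndufs5 and Ndufv3. Ndufb4b and Ndufb4c are copies of Ndufb4 on other chromosomes, and Ndufb4 itself had 3.82 (2.38 to 5.86) in Naive. The rest of the 21 included Ndufa12 at 5.60 and Ndufs4 at 5.38, and Ndufs4 had a second and higher Naive peak, 8.13, inside the gene.

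Assembly factors help to build complex I and are not part of the finished enzyme. In Naive, Ndufaf8 had 7.64 (5.56 to 10.3), Ndufaf3 5.27 (3.61 to 7.45) and Ndufaf5 4.80 (3.11 to 7.10), followed by Ndufaf2 at 4.39 and Ndufaf1 at 3.59. Each of the 5 but Ndufaf1 shared its peak with another protein-coding gene. Ndufaf4, Ndufaf6 and Ndufaf7 had none, and no assembly factor had a peak in EpiLC.

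Complex II (succinate dehydrogenase) also belongs to the TCA cycle. Sdhb, for its iron-sulphur subunit, had 5.25 (3.60 to 7.42) in Naive, against 3.56 (2.58 to 4.79) in EpiLC. These 2 peaks did not overlap, with summits 594 bp apart on either side of the start, which set Sdhb apart from the other 13 genes with peaks in both lists. Sdhd, a membrane anchor, had 4.40 (2.85 to 6.51) in Naive at a peak shared with Timm8b, a gene for a mitochondrial import chaperone. Sdha, for the flavoprotein, lacked a gene-end peak in both. Sdhc, the other anchor, had none at its ends but a Naive peak of 4.80 inside the gene, 8612 bp from the nearer end.

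Complex III passes electrons from ubiquinol to cytochrome c. The 4 highest Naive peaks lay at small subunits, and each of them also lay at an end of another protein-coding gene (Gdf9, Zmat5, Lrrc41 and Gm10767), so none can be given to the subunit alone. Uqcrq had 6.53 (4.60 to 9.01), Uqcr10 5.92 (4.08 to 8.33), Uqcrh 5.84 (4.03 to 8.21) and Uqcrb 5.24 (3.51 to 7.53). The core proteins, whose peaks lay at no other protein-coding gene, had lower values, with Uqcrc2 at 3.68 (2.39 to 5.44) and Uqcrc1 at 3.23 (2.07 to 4.81), the lowest fold among the 59 genes. The intervals of the core proteins overlapped those of all the small subunits. Uqcrfs1, for the Rieske iron-sulphur protein, had no peak nearer than 459530 bp in Naive, and Uqcr11 had none at its ends. No complex III gene had an EpiLC gene-end peak. Cycs, for cytochrome c itself, had 4.20 (2.64 to 6.37) in Naive and none in EpiLC.

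Complex IV (cytochrome c oxidase) hands the electrons to oxygen, and several of its subunits exist as isoforms for different tissues. Ndufa4 and Ndufa4l2 were counted here, since Ndufa4 is a subunit of this complex in spite of its name. Cox6c and Cox7a2l, a factor for joining complexes III and IV, had the same Naive fold, 6.99 (4.90 to 9.69), at peaks on different chromosomes with the same pileup of 34 fragments. Cox7c was the complex IV gene with peaks in both lists, at 5.98 (4.21 to 8.25) in Naive, against 2.50 (1.86 to 3.29) in EpiLC, the lowest EpiLC fold among the 14. Cox8a had 4.87 (3.36 to 6.85), Cox6b1 4.50 (2.89 to 6.71) and Cox5b 3.95 (2.51 to 5.94), all in Naive alone. Cox4i1 and Cox5a, which line the mitochondrially encoded core, had no gene-end peak.

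Isoforms restricted to other tissues and their widely expressed paralogues were counted beside the 19.3% of all protein-coding genes with a Naive gene-end peak. Of the 8 restricted isoforms (Cox4i2, Cox6a2, Cox6b2, Cox7a1, Cox7b2, Cox8b, Cox8c and Ndufa4l2), 1 had a Naive gene-end peak, Cox6b2 at 3.72 (2.50 to 5.35). Its summit lay at the 3' end of the gene, 1053 bp from the start. Of the 7 widely expressed paralogues, Cox6b1 and Cox8a had a Naive gene-end peak and Cox4i1, Cox6a1, Cox7a2, Cox7b and Ndufa4 did not. Cox7a2 did have a Naive summit 297 bp from an annotated start, more than 1 kb from the gene ends. With shares of 12.5% (0.316 to 52.7) and 28.6% (3.67 to 71.0), the 2 groups could not be told apart from each other. Both intervals included the 19.3% of all genes.

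**Figure D2:**
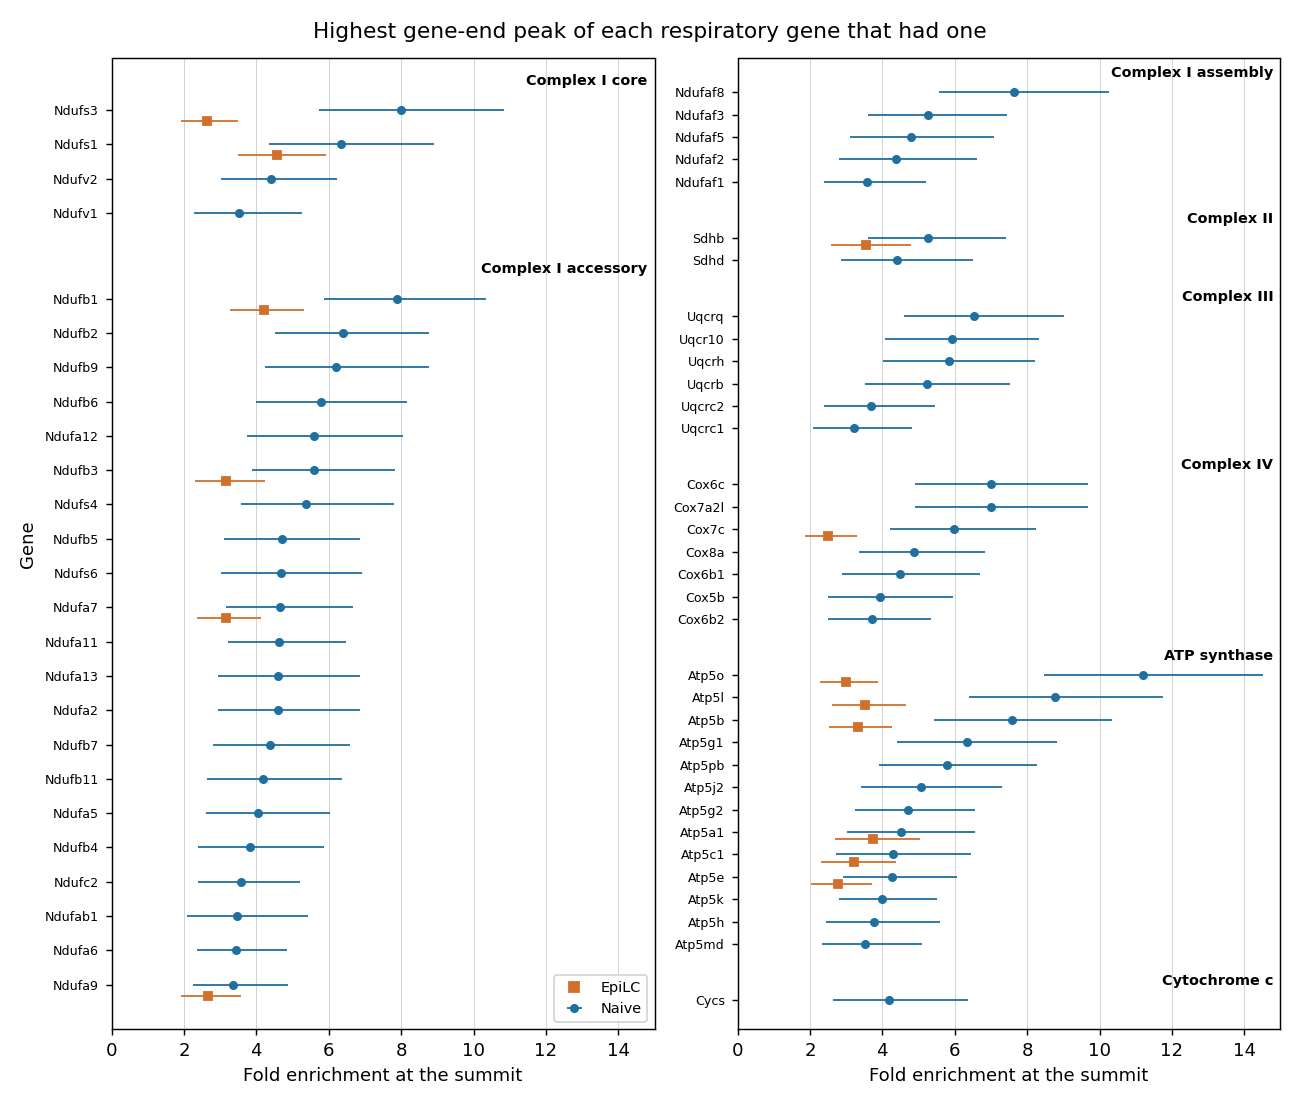
Fold enrichment at the summit (x axis) of the highest gene-end peak for each of the 59 respiratory genes with one (y axis), grouped by complex. Circles are Naive, squares EpiLC, and lines are 95% Poisson intervals of counting error. Atp5o stands highest in Naive at 11.2, and the 14 EpiLC values lie between 2.50 and 4.58.

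Across the 14 genes with peaks in both lists, the Naive fold was the higher at each. Naive folds ran from 3.36 to 11.2 with a median of 5.78, and EpiLC folds from 2.50 to 4.58 with a median of 3.19. At 6 of the 14 genes (Ndufb1, Atp5l, Atp5b, Atp5o, Ndufs3 and Cox7c) the Naive interval lay above the EpiLC interval. The EpiLC pileup was the larger at all 14, over a higher background, so the order of the pileups was opposite to that of the folds. The 45 genes in Naive alone had a median Naive fold of 4.60, from 3.23 to 7.64. Of the 14 genes, 9 had a Naive fold of at least 5, against 16 of the 45. Peaks of the 2 lists overlapped by at least 1 bp at 13 of the 14 genes and by at least 50% of each peak at 8, with a median of 134 bp between summits. Over all genes with a gene-end peak the median fold was likewise higher in Naive, 4.58 against 3.34 in EpiLC. The fold order, the interval count, the pileup order, the split of Naive folds and the overlap are not given here over all genes. None of them is therefore shown to be particular to respiratory genes.

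Against gene-end peaks at large, the respiratory genes did not stand out by fold. In Naive their median was 4.67 (quartiles 4.12 and 5.88), beside 4.58 over all genes with a gene-end peak, and 34 of 59 lay above the median of all such genes. A fold of at least 5 was reached by 42.4% of them and 35.3% of all such genes. In EpiLC their median was 3.19, beside 3.34, and 5 of 14 lay above the median. None of the 14 reached a fold of 5, which 12.1% of all genes with an EpiLC gene-end peak did. Naive peaks at respiratory genes had a median width of 477 bp, beside 392 bp.

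Summits gathered at the starts of the genes rather than at their 3' ends. Of the 59 genes with a Naive peak, 51 had an annotated start in the promoter table, and at 49 of them the summit was nearer to the start end (96.1%, beside 94.1% of all genes with a gene-end peak and a start). The exceptions were Cox6b2 and Ndufb6, whose highest peak (5.80) lay beyond its 3' end near Smim27 and Topors while a lower one (4.49) lay 115 bp inside its start. The median distance to the start was 168 bp, beside 223 bp for all such genes, and 68.6% of the summits lay within 250 bp, beside 55.4%. Of the 49, 35 summits lay inside the gene, 13 before the start and 1, that of Atp5h, at the start itself. In EpiLC, all 12 genes with an annotated start had the summit at the start end, beside 91.1% of all genes with an EpiLC gene-end peak and a start. Of these summits, 5 lay inside the gene and 7 before it, and 10 (83.3%) lay within 250 bp of the start, beside 45.3%. Whether a summit fell in an exon or an intron was not analysed here.

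**Figure D3:**
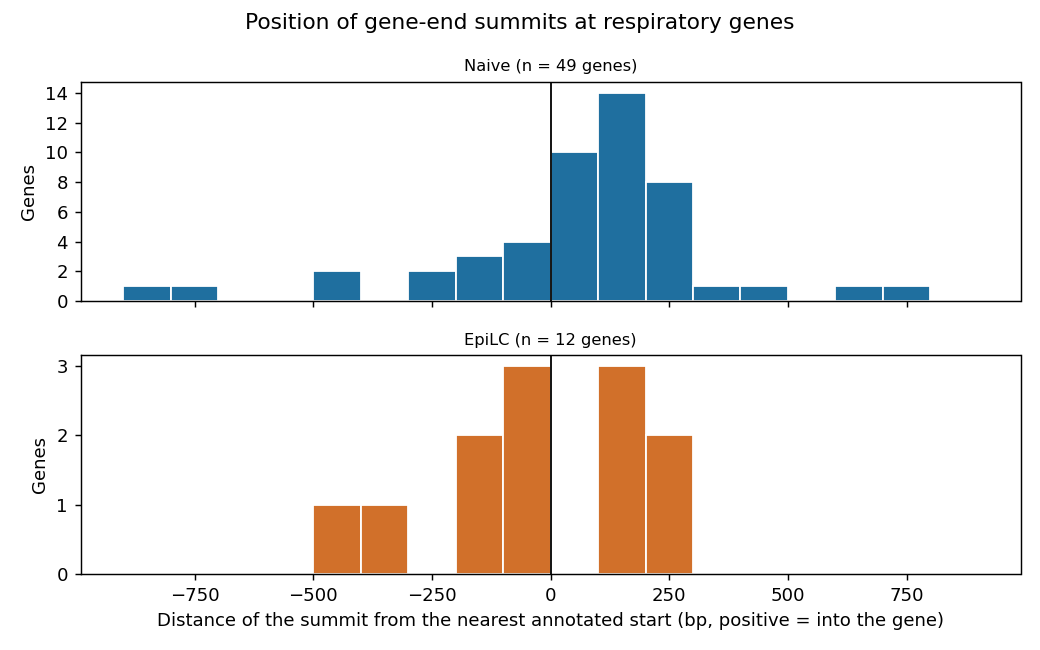
Number of respiratory genes (y axis) by the distance in bp from the nearest annotated start to the gene-end summit (x axis, positive values lie inside the gene), for 49 Naive genes and 12 EpiLC genes with the summit at the start end. Naive summits pile up just inside the gene, 35 of 49, and EpiLC summits lie on both sides, 5 inside and 7 before the start.

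Many of these peaks also lay near an end of another gene, either its start or its 3' end. In Naive, 29 of the 59 genes (49.2%) had their peak within 1 kb of the end of another protein-coding gene as well, beside 36.2% of all genes with a gene-end peak. In EpiLC it was 7 of 14, beside 30.9%. A peak at such a place cannot be given to either gene. No 2 respiratory genes shared a peak: the 59 genes had 59 distinct highest peaks, and 6 of the genes had a second one at the gene ends.

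Of the 38 genes without a Naive gene-end peak, most had no peak close by. The median distance from the gene ends to the nearest Naive summit was 12484 bp, 19 genes had none within 10 kb, and 2 had one within 3 kb, Atp5j at 1154 bp (2.99) and Ndufb10 at 2408 bp (3.63). Such distances are not given here for all genes without a Naive gene-end peak, so they are not shown to be particular to respiratory genes. The genes closest to the 1 kb limit on its inner side were Atp5g1 at 502 bp, Cox6b1 at 706 bp and Ndufv2 at 791 bp. An annotated start inside the gene span gave a summit to 3 further genes. Cox5a had a Naive summit 242 bp from an annotated start (4.16), Atp5j 273 bp (2.99) and Cox7a2 297 bp (3.39), all more than 1 kb from the gene ends. Counting summits within 1 kb of an annotated start instead, 53 of the 79 respiratory genes with a start had one in Naive (67.1%, beside 20.6% of all genes with a start) and 12 in EpiLC (15.2%, beside 5.81%).

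Among the motifs, NRF1, ETS and YY1 had higher shares in respiratory promoters than in promoters at large, and the C-rich motifs had lower ones, with the share at large outside the interval of the respiratory genes for each of the 5. The shares are a description and were not tested. The windows ran from 250 bases before to 50 after each start, and 84 windows of 79 respiratory genes were set beside 21263 windows of all protein-coding genes. Motifs were searched on both strands, and a match is a description of letters, not of binding. NRF1, a factor that drives nuclear genes of mitochondria (GCATGCGC), was matched in 15.5% of the respiratory windows (95% exact binomial interval 8.51 to 25), beside 3.52% of all windows. The ETS motif (CCGGAAG), bound by factors such as Gabpa, was matched in 22.6% (14.2 to 33.0), beside 11.6%. The YY1 motif (AAGATGGC) was matched in 13.1% (6.72 to 22.2), beside 3.05%. The Sp motif (GGGCGGG) had 34.5%, beside 33.9%. A run of C (CCCCCC) was matched in 8.33% (3.42 to 16.4), beside 19.4%, and the CT element (CCCTCCC), a C-rich motif bound by related KH-domain proteins, in 13.1% (6.72 to 22.2), beside 24.9%.

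Genes with any Naive gene-end peak, respiratory or not, gave a nearer comparison. Over their 4262 windows the shares were 6.38% for NRF1, 23.9% for ETS, 6.55% for YY1, 43.2% for Sp, 21.1% for the C run and 24.9% for the CT element. The ETS share of respiratory genes was thus close to that of genes with a Naive gene-end peak. Among respiratory genes, windows with and without a Naive gene-end peak (54 and 30) had NRF1 in 16.7% and 13.3%, ETS in 27.8% and 13.3%, YY1 in 11.1% and 16.7% and the C run in 11.1% and 3.33%. These are shares of few windows, and no difference between them was tested. The C run matched in the printed Ndufb3 promoter was found at 7 respiratory windows in all, among them those of Cox7a2l, Ndufs6 and Atp5j. Median G and C content was 58.5% for respiratory windows and 56.3% for all.

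**Figure D4:**
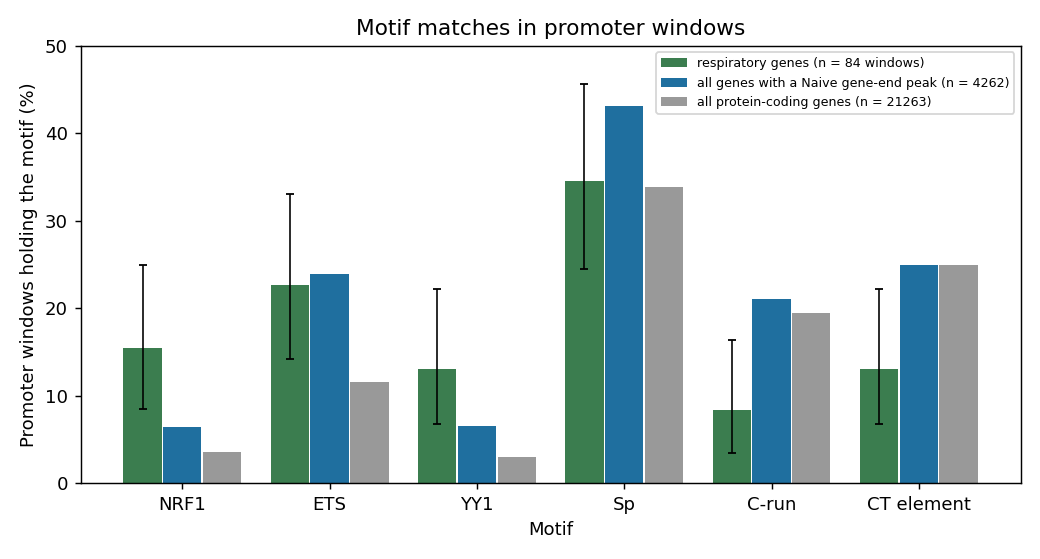
Share of promoter windows holding each motif (%, y axis) for the 6 motifs (x axis), in respiratory genes, in all genes with a Naive gene-end peak and in all protein-coding genes; error bars are 95% exact binomial intervals for the respiratory genes. NRF1 stands at 15.5% in respiratory genes and 3.52% in all genes, and the C run at 8.33% and 19.4%.

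Other gene groups of mitochondrial energy metabolism had Naive shares from 44.4% to 61.5%, beside 19.3% of all protein-coding genes. Their EpiLC shares ran from 6.67% to 28.6%, beside 5.61%. The EpiLC intervals of all these groups but the TCA cycle (8.39 to 58.1) included 5.61%. In Naive, the interval of the regulators (13.7 to 78.8) was the one that included 19.3%. Of 30 genes made up of Cyc1, the complex III subunit left out by the symbol rule, and assembly factors of complexes I to V, 14 had a Naive gene-end peak and 2 an EpiLC one. Coenzyme Q synthesis had 7 and 1 of 13 genes, the TCA cycle 7 and 4 of 14, and transcription, replication and RNA handling of mitochondrial DNA 8 and 2 of 13. Among 9 regulators of respiratory genes, 4 had a Naive peak (Esrra, Gabpa, Pprc1 and Sp1) and 1 an EpiLC peak (Sp1), while Nrf1, Yy1, Gabpb1, Ppargc1a and Ppargc1b had neither. Mitochondrial ribosomal protein genes had 47 of 78 in Naive (60.3%, 48.5 to 71.2) and 8 of 78 in EpiLC (10.3%, 4.53 to 19.2). These shares lay close to the 60.8% and 14.4% of the respiratory genes, and the intervals overlapped in both lists. The share of genes with a gene-end peak therefore did not set the respiratory chain apart from the mitochondrial ribosome.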

How the data were processed

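Pcbp1 ChIP-seq peaks of naive and EpiLC mouse cells were analysed, 1 library and 1 deposited list per state. MACS2, Bowtie2, Picard and fastp are listed in the submitters' processing notes without roles, with GRCm38 (mm10) as build, and the control of the peak calling is not stated there. Fold enrichment, as the authors deposited it, divides the summit by the local background, a ratio in narrowPeak layout. Significance was deposited as a −log10 p-value for each peak, with a −log10 q-value beside it. The offset of each summit inside its peak is another deposited column. The depth of the libraries is not known here.

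Genes and promoters came from RefSeq tables of GRCm38.p6. All 97 members matched by symbol, and 79 had a promoter entry. The pileup was solved from fold and p-value, as the whole number whose Poisson −log10 p came within 0.001 of the deposited one, assuming a fold of (pileup + 1) / (background + 1). Code was tested on simulated peaks. The work used scipy 1.17.1, pandas 2.3.3, numpy 2.4.6 and matplotlib 3.10.9 under Python 3.11.15. Named genes were those with peaks in both lists, the 3 highest Naive folds per complex, core subunits and isoform pairs. Members, lists, motifs and alternatives were chosen with earlier results of these data known. Alternatives were other windows, stricter thresholds, a shortened Naive list, start ends, peak overlap and leaving out assembly factors. Some values for single genes are not reported here.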

Additional observations from a re-analysis of the deposited data

How the results depend on the processing

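Each state had 1 library, so leaving out a replicate was not possible. No paired analysis was possible because the labels give no replicate numbers and the result comes from no test. Among the alternative counts, 97 stayed within 1.5 times the main count and 31 did not. Within 500 or 3000 bp, with −log10 q values of 5 and above, or with any base of the peak in place of the summit, the count of respiratory genes ran from 54 to 61 of 97 in Naive and from 11 to 16 in EpiLC, against 59 and 14. The shares of all genes ran from 15.4% to 23.8% and from 4.27% to 7.53%. Annotated starts gave 53 and 12 of 79 genes, and leaving out the 9 non-subunits gave 53 and 14 of 88.

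A fold of at least 5 left 25 genes in Naive (6.83% of all genes), 0 in EpiLC (0.676% of all genes) and 0 in both lists. By complex it left 2 core, 7 accessory and 2 assembly genes of complex I, 1 of complex II, 4 of complex III, 3 of complex IV, 6 of ATP synthase and 0 of cytochrome c in Naive, and 0 in EpiLC for each complex that had any. With the Naive list shortened to 3494 peaks, 22 genes had a Naive gene-end peak (5.44% of all genes) and 9 had both. By complex these were 2 core, 6 accessory and 2 assembly genes of complex I, 1 of complex II, 3 of complex III, 3 of complex IV, 5 of ATP synthase and 0 of cytochrome c. These 2 settings keep fewer peaks, and the share of all genes with peaks in both lists is not given here for either. In EpiLC, the complex I core had 1 gene within 500 bp, 1 with −log10 q values of 5 and above and 1 at annotated starts, and complex IV had 0 under that q limit. Complex III had 3 genes at annotated starts in Naive, since some of its genes have no start in the table. Peaks of both lists overlapping by at least 50% of each were found at 8 genes. For the 6 genes with several Naive peaks, the fold of the peak nearest to a gene end lay within the interval of the highest.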

Other observations

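The mitochondrial chromosome, which encodes the remaining subunits of the respiratory complexes, held 5 peaks in the Naive list and 0 in the EpiLC list. Their folds ran from 1.52 to 2.03, and 1.52 was the lowest fold of the whole Naive list. The summit pileups, 177 to 299 fragments, stood over local backgrounds of 111 to 147 fragments. Nuclear respiratory genes with a Naive peak had pileups of 17 to 55. The high background at the mitochondrial chromosome was not compared with the input libraries, which were not analysed here.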
